A study of Mus musculus with 3 samples.

Results

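Klf2, Klf4, Klf6, Klf7, Klf9, Klf10, Klf13 and Klf15, 8 of the 20368 genes in the deposited table, encode Kruppel-like factors and were followed across 8 cell classes of the mouse prefrontal cortex. They were chosen on their measured levels by class, so every level by class below is a description and carries no test. The table holds 16 genes of the family. A cell entered a class when both genes of a defining pair were above 0, and the pairs were Cldn5 and Flt1 for endothelium, Kcnj8 and Vtn for pericytes, Acta2 and Myh11 for smooth muscle, Dcn and Col1a1 for fibroblasts, P2ry12 and Csf1r for microglia, Aqp4 and Gja1 for astrocytes, Pdgfra and Lhfpl3 for oligodendrocyte precursor cells (OPC), and Dlx1 and Sp9 for neuroblasts. Of 14192 cells, 11336 fell in 1 class. Another 810 carried the pairs of 2 or more classes and were dropped, and 2046 carried none. The classes held 773 endothelial cells, 791 pericytes, 45 smooth muscle cells, 72 fibroblasts, 1631 microglia, 3449 astrocytes, 2766 OPC and 1809 neuroblasts.

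The tissue came from mice of both sexes that had inhaled sevoflurane, a volatile anaesthetic, at about 3% on postnatal day 6 and were killed that day. The labels give 1 group of 3 libraries and name neither strain nor genotype, and no unexposed mice were analysed here, so nothing here separates an effect of the anaesthetic from the normal state at that age. Single cells were profiled on a droplet platform, although the extraction wording in the labels describes frozen tissue and bulk RNA. Nothing says that the libraries came from separate animals, so the spread behind the p-values may be technical. That spread is what remains of each gene after group and library are fitted, pooled over all groups in a fit. In comparisons inside a class, a gene therefore has the same SE in every class, and the 2 sides were not paired within their class in the main fit. A class steadier than the rest gets too large an SE, and a noisier one too small an SE.

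Kruppel-like factors are transcription factors whose zinc fingers bind CACCC boxes and other GC-rich sequence, and members either activate or repress transcription through the partners they recruit. In endothelium, steady blood flow induces Klf2 and Klf4 through a kinase cascade that ends in MEF2 factors, and both keep the vessel lining anticoagulant and quiet. Klf9, Klf13 and Klf15 are better known in hormone responses and differentiation, Klf6 and Klf10 as rapidly induced genes, and Klf7 in neurons and their outgrowth.

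Promoter sequence in RefSeq (build GRCm38.p6, 250 bases before to 50 after the annotated start) was matched for 7 of the 8 genes, all but Klf10. The promoters of Klf2, Klf4 and Klf6 are printed because these genes were highest in endothelium, and those of Klf9 and Klf13 because both were higher in differentiating oligodendrocytes. Each runs 5′ to 3′ on the gene's strand, with CACCC on either strand (GGGTG where it lies on the other) and the MEF2 site in capitals. They lie at chr8:72318812-72319111 (plus strand) for Klf2, chr4:55532426-55532725 (minus) for Klf4, chr13:5861239-5861538 (plus) for Klf6, chr19:23140976-23141275 (plus) for Klf9 and chr7:63938866-63939165 (minus) for Klf13.
Klf2: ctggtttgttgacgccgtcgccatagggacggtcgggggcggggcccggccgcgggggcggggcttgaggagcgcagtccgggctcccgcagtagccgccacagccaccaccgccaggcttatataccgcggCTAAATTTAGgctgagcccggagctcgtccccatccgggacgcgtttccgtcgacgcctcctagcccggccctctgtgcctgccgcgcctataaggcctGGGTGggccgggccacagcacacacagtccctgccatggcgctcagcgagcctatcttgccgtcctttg
Klf4: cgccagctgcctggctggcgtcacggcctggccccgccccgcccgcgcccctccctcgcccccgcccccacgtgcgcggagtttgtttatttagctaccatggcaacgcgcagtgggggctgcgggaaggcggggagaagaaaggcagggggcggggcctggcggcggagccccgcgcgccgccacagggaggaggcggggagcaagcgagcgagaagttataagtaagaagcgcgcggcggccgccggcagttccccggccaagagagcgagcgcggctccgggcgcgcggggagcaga
Klf6: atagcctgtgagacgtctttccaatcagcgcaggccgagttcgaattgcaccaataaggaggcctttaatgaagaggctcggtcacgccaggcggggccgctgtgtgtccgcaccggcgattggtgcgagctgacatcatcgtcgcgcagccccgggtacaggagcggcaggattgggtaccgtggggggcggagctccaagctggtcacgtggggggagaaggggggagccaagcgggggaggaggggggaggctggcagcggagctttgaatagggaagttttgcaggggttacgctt
Klf9: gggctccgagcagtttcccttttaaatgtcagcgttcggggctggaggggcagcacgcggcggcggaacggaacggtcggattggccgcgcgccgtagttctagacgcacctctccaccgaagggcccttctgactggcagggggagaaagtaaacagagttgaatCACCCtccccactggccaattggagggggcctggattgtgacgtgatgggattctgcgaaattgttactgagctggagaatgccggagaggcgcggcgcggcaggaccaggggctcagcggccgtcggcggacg
Klf13: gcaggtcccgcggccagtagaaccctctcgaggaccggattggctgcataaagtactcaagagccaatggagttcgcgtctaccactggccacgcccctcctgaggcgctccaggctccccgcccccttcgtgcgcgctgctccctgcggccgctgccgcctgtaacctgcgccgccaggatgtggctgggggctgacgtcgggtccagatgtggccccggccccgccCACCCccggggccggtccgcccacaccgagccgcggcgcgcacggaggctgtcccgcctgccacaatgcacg
CACCC was present in 5 of the 7 promoters and in 57.5% of 32851 mouse promoters of the same length. A MEF2 site was found in Klf2 alone of the 7, from 118 to 109 bases before the start, and in 3.19% of all promoters. GGGCGG was present in 6 of the 7, against 35.7% of all promoters, with 4 copies in Klf4, and CCAAT in 4 of the 7, against 37.4%, with 4 copies in Klf6. TGACGTCA, TATAAA and the CArG box were in none of the 7 and in 1.79%, 13.6% and 1.63% of all promoters. Both strands were searched, and the single overlap between different motifs was between GGGCGG and CACCC in Klf13. These matches describe letters in the window and not bound sites.

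Levels are given as the mean over cells of CPM, a cell's counts scaled to the same total, computed from the deposited depth-corrected counts. Markers that the defining pairs did not use were highest in the class they mark for all 8 classes, but the 5 pericyte markers summed to nearly as much in smooth muscle cells, 19497 CPM, as in pericytes, 20591 CPM. Of the dropped cells, 146 had both endothelial and pericyte pairs. The smooth muscle class had 10 to 18 cells in each library and the fibroblast class 20 to 29, so their levels rest on few cells. In fibroblasts the 3 libraries also differed widely. Median detected genes per cell ran from 1866 in neuroblasts to 2945 in smooth muscle, and 90 cell barcodes occurred in more than 1 library.

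Klf2 was highest in endothelium by a wide margin. In endothelial cells its mean was 3142, 3403 and 3951 CPM in libraries 1, 2 and 3, which averaged 3499 ± 413 CPM (SD, n = 3), and 97.9% of cells had a count above 0. Fibroblasts followed at 134, 355 and 822 CPM, a mean of 437 ± 351 CPM that was 245 CPM without library 3. All 3 endothelial libraries lay above all 3 fibroblast libraries. Smooth muscle (116 CPM), pericytes (86.4 CPM) and microglia (85.4 CPM) came next, with overlapping libraries between neighbours. Astrocytes, OPC and neuroblasts stood at 14.6, 11.9 and 11.6 CPM and overlapped each other. In neuroblasts 5.09% of cells had a count above 0, at fewer detected genes per cell (median 1866, against 2847 in endothelium). Whether that share reflects free RNA or low expression was not tested.

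Klf4, the closest functional partner of Klf2 in endothelium, had the same leading class. Endothelial cells measured 480, 447 and 608 CPM, a mean of 512 ± 85.1 CPM, with 84.9% of cells above 0. Fibroblasts measured 57.4, 73.5 and 356 CPM. Library 3 alone set the fibroblast mean of 162 ± 168 CPM, which was 65.4 CPM without it. Astrocytes (13.1 CPM), microglia (12.3 CPM), smooth muscle (8.50 CPM) and pericytes (6.22 CPM) overlapped, and neuroblasts (1.35 CPM) and OPC (1.14 CPM) were lowest. Among endothelial cells with Klf2 above 0, the share with Klf4 above 0 was 83.6%, 85.6% and 90.3% in the 3 libraries. Only 17 endothelial cells had Klf2 at 0, too few for that share to be read.

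Klf6, which is induced by injury in vessels and other tissues, was also highest in endothelium, with 885, 917 and 962 CPM and a mean of 921 ± 38.8 CPM. It was less restricted than Klf2 and Klf4, being above 0 in 97.1% of endothelial cells and in 60.9% of pericytes. Pericytes came second at 230 ± 43.1 CPM, below every endothelial library. Smooth muscle (153 CPM), fibroblasts (138 CPM) and microglia, whose libraries ran from 119 to 129 CPM, followed with overlaps. Astrocytes had 70.9 CPM, OPC 45.0 CPM and neuroblasts 37.3 CPM, and only OPC and neuroblasts overlapped among these 3.

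Klf13, a repressor that recruits Sin3a, was highest in both cell types of the capillary wall. Pericytes measured 544, 487 and 454 CPM, a mean of 495 ± 45.5 CPM, and endothelial cells 450, 436 and 463 CPM, a mean of 450 ± 13.2 CPM. The 2 classes overlapped, so their order is not set by these libraries. Smooth muscle (203 CPM), neuroblasts (202 CPM) and fibroblasts (169 CPM) formed a middle range with overlaps. OPC had 103 CPM, microglia 85.5 CPM and astrocytes 77.9 CPM.

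Klf9, a close relative of Klf13 induced by thyroid hormone and glucocorticoids, was highest in astrocytes and fibroblasts. Astrocytes measured 246, 274 and 267 CPM and fibroblasts 175, 230 and 282 CPM, and these ranges overlapped. Smooth muscle (125 CPM) and pericytes (117 CPM) overlapped, while endothelium (76.2 CPM), OPC (63.2 CPM) and neuroblasts (17.8 CPM) each lay below the class before. Microglia were lowest at 4.88 ± 0.514 CPM, with 2.02% of cells above 0. Thinned to 4400 corrected counts in every cell, the share above 0 was 1.56% of microglia and 64.5% of astrocytes.

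Klf15, a glucocorticoid-induced regulator of metabolism, was an astrocyte gene in these cells. Astrocytes measured 98.1, 97.2 and 91.3 CPM, a mean of 95.5 ± 3.68 CPM, and 43.5% of them had a count above 0 (34.1% after thinning). OPC came next with 10.6 ± 1.36 CPM, overlapping fibroblasts. In astrocytes with Klf9 above 0, Klf15 was above 0 in 47.0%, 44.4% and 44.9% of cells by library, against 36.6%, 39.9% and 36.9% of astrocytes with Klf9 at 0, which also had fewer detected genes. Every other class averaged 6.19 CPM or less. The endothelial share was 0.811% at a similar number of detected genes (2847 against 2761 in astrocytes). Whether such a share reflects free RNA or low expression was not tested. In smooth muscle 0 of 45 cells had a count, which allows a share of up to 6.67%, and that limit covers counting error only.

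Klf10, an early gene of transforming growth factor beta signalling, was highest in microglia. There it measured 58.7, 57.5 and 55.7 CPM, a mean of 57.3 ± 1.49 CPM, and endothelium followed at 36.7, 36.3 and 43.5 CPM. Those 2 classes did not overlap. The other 6 classes averaged between 11.4 and 18.7 CPM, and each of them overlapped its neighbour in the order.

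Klf7, which in mice supports axon growth, peaked outside the vessels. Neuroblasts measured 257, 264 and 256 CPM, a mean of 259 ± 4.41 CPM, above astrocytes at 194 ± 10.3 CPM and pericytes at 158 ± 9.35 CPM. Endothelium (139 CPM), smooth muscle (125 CPM) and microglia (116 CPM) overlapped. OPC had 79.8 CPM and fibroblasts 32.3 ± 17.0 CPM.

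**Figure D1:**
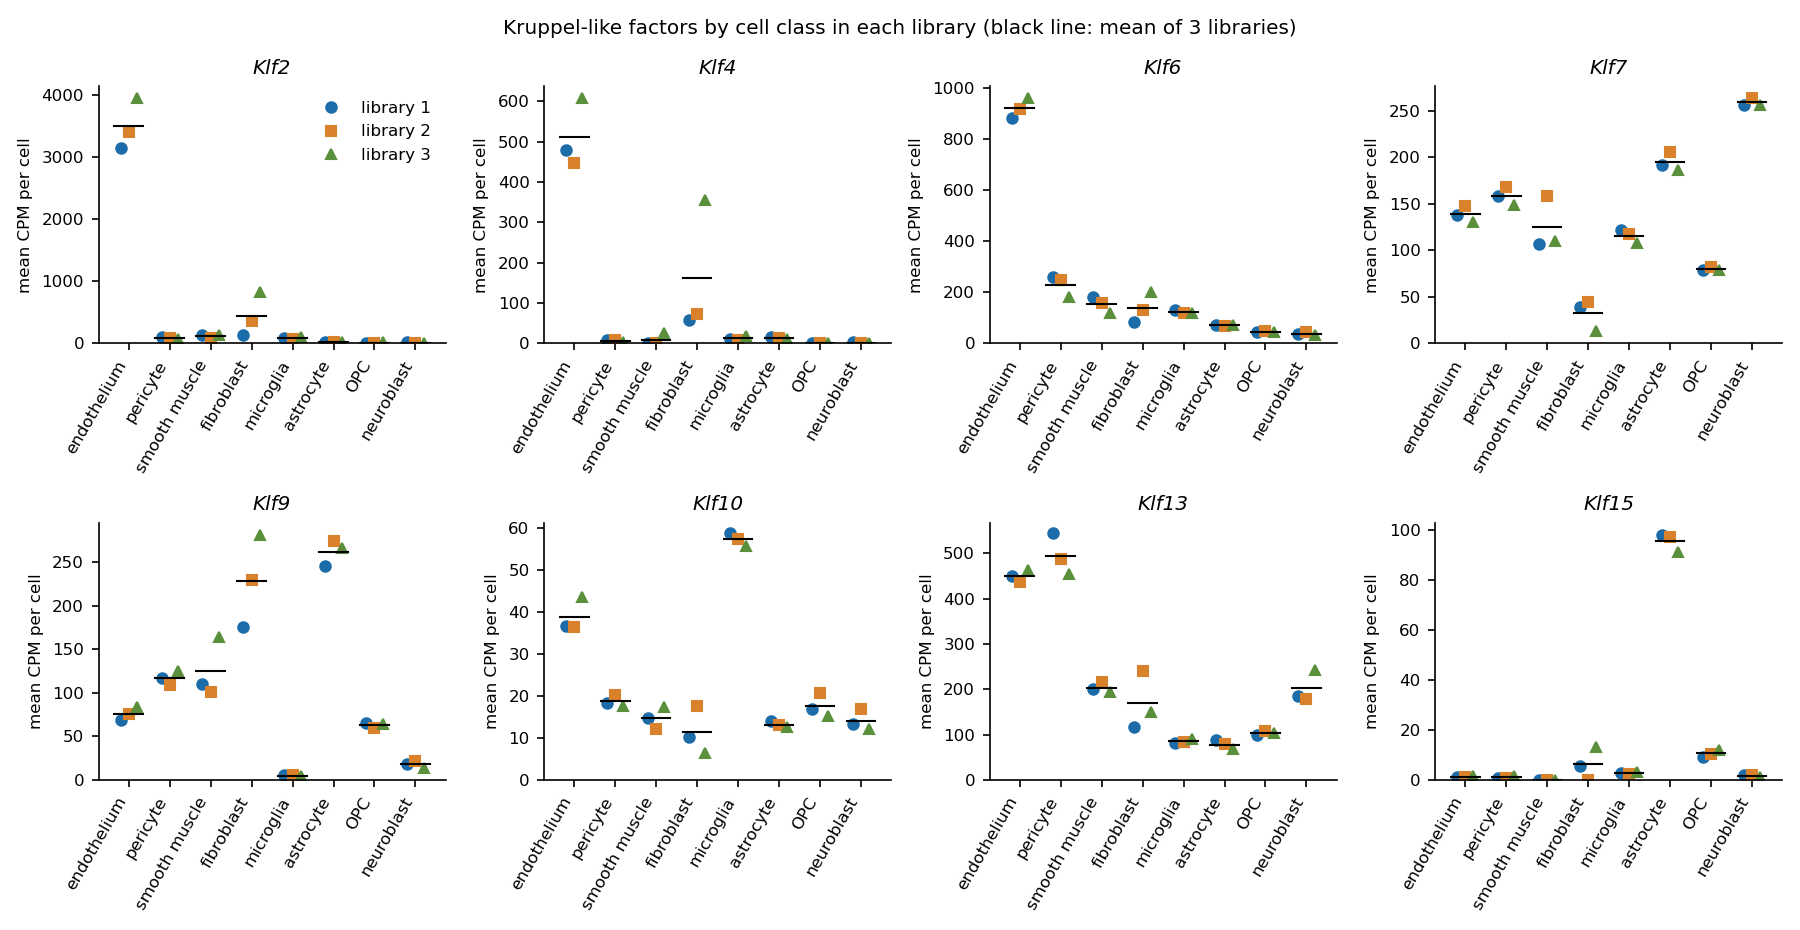
Mean CPM per cell of each gene (vertical axes, linear from 0) in the 8 classes (horizontal axes), 1 point per library and a black line at the mean of 3 libraries. Klf2, Klf4 and Klf6 peak in endothelium in every library, Klf10 in microglia, Klf15 in astrocytes and Klf7 in neuroblasts, and the fibroblast points of Klf4 lie apart, with library 3 highest.

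Cells also differed in how many of the 8 genes they showed. Endothelial cells had 4.93 of them above 0 on average, and pericytes, smooth muscle, fibroblasts and astrocytes between 2.75 and 2.90. Microglia, neuroblasts and OPC had 1.72, 1.49 and 1.42. Summed over the genes the level was 5636 ± 542 CPM in endothelium and 1113 ± 107 CPM in pericytes. Early response genes were also highest in endothelium: 15 of them, Fos not among them, summed to 5799 to 6405 CPM in the endothelial libraries. Their class means elsewhere ran from 878 (astrocytes) to 2100 CPM (fibroblasts). Fibroblasts came second in both sums by their mean, at 1186 ± 615 CPM for the 8 genes, and the classes below them ran in a different order. Pericytes, at 1113 CPM, lay within that SD. For the early response genes, fibroblast library 1 lay below every microglial library (1475 to 1734 CPM). Second place is therefore not set by these libraries in either sum. In the fibroblast libraries, where Klf2 and Klf4 were highest in library 3, the 15 early response genes summed to 1392, 2034 and 2873 CPM and Fos measured 57.6, 226 and 444 CPM. The part of early gene induction in these levels was not tested.

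The profiles over 24 points (8 classes in 3 libraries) were compared by Pearson r on log2(CPM + 10), among the 9910 genes whose mean reached 10 CPM. The points of a class share its cells' identity and those of a library its preparation, so r is a description. Closest to Klf2 were Arf6 (r = 0.95), Jcad (0.93) and Acvrl1 (0.93), the last an endothelial receptor for bone morphogenetic proteins. Klf6 had Acvrl1 (0.97), Arf6 (0.96) and Adipor1 (0.93), and Klf4 had Htra3 (0.96), Slc16a9 (0.95) and Hmcn1 (0.95). Klf15 was matched most by Fndc5 (0.98), Plcd4 (0.97) and Adhfe1 (0.97). For Klf10 they were Lyl1 (0.95), Lcp1 (0.95) and Arhgap25 (0.94), genes known from blood-derived cells. Klf9 had Aamdc (0.95), Tnfrsf19 (0.93) and Rora (0.93), Klf13 had Mospd1 (0.95) and Dnajc8 (0.95), and Klf7 had the lowest values, with Cox5a (0.89), Klhl24 (0.87) and Vps37b (0.85). Among the genes themselves r was 0.93 for Klf2 with Klf6 and 0.91 for Klf2 with Klf4. Klf9 and Klf10 ran most opposite, with r = -0.64.

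Vessel classes (endothelium, pericytes and fibroblasts) were then set against glial classes (microglia, astrocytes and OPC), and endothelium against pericytes, the adjoining cells of the capillary wall. Smooth muscle was left out of this fit for its few cells. For the 8 genes the differences are descriptions, on the log2(mean CPM + 10) scale, which understates the change of low genes. Vessel minus glia was 3.72 for Klf2, 2.52 for Klf4, 1.90 for Klf6, 1.8 for Klf13 and 1.04 for Klf9. Klf9 was nevertheless highest in astrocytes: its mean CPM over classes was 141 in vessels and 110 in glia, and microglia at 4.88 CPM lower the glial mean of logs. It was -0.18 for Klf10, -0.41 for Klf7 and -1.29 for Klf15. Endothelium minus pericytes was 5.20 for Klf2, 5.01 for Klf4, 1.97 for Klf6 and 0.77 for Klf10. For Klf9 it was -0.56. Klf7 (-0.18) and Klf13 (-0.13) differed little and changed sign, to 0.06 and 0.13, when the corrected counts were not scaled per cell, and Klf15 (0.03), near the detection limit in both classes, also changed sign with stricter class rules.

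**Figure D2:**
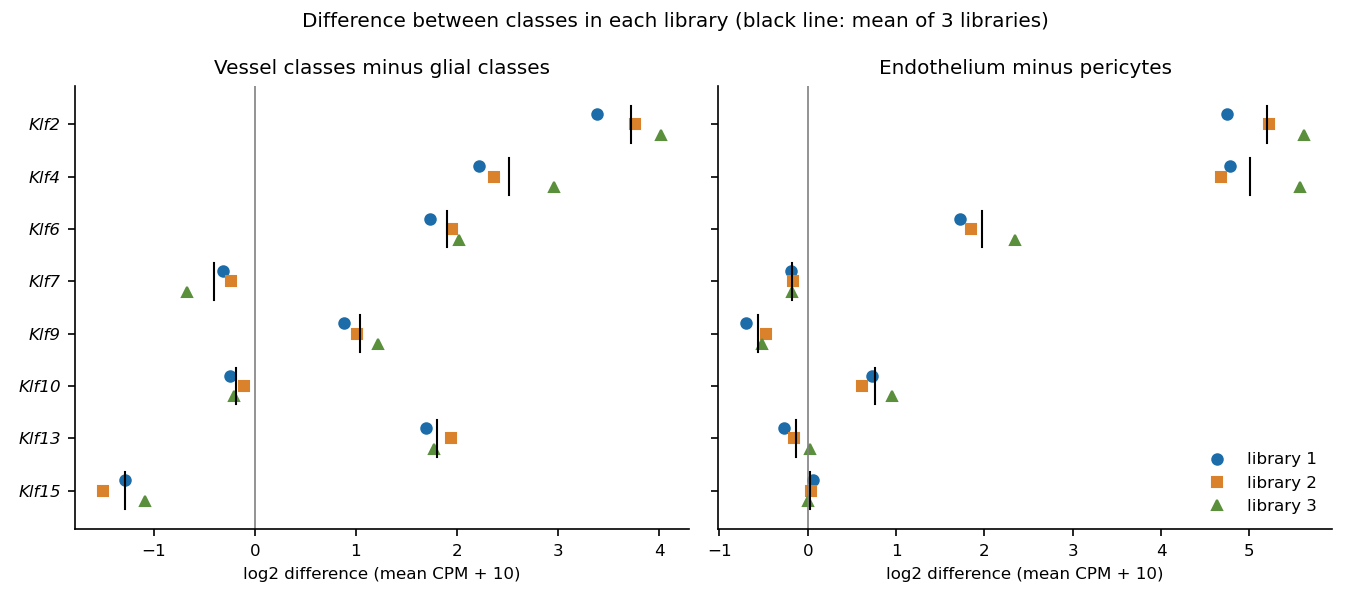
Log2 difference in mean CPM + 10 (horizontal axes) for each gene, vessel minus glial classes (left) and endothelium minus pericytes (right), with 1 point per library and a black line at the mean. Klf2 and Klf4 lie farthest right in both panels, and Klf15 lies left of 0 in every library in the left panel.

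Genes of the same pathway that were not among the 8 were tested in that fit, with limma and Benjamini-Hochberg adjustment over 9897 genes and a threshold of 0.05, the convention for every adjusted p below. Class differences were common: 67.4% of all genes passed between vessel and glial classes and 47.5% between endothelium and pericytes. Of 63 listed genes 46 passed between vessels and glia (32 higher, 14 lower in vessels), a share near its background. Between endothelium and pericytes 44 passed (29 higher, 15 lower in endothelium), a share above its background. The lists were chosen with earlier results of these data known, and 1 of them holds endothelial genes by choice. The higher share is therefore not a result about the pathway. Of 9 other listed Kruppel-like factors 3 reached the level for testing. Klf11 was higher in vessels (log2 1.01 ± 0.14 SE, adjusted p = 5.5e-06) and in endothelium against pericytes (0.99 ± 0.24, adjusted p = 0.0025). Klf3 was higher in endothelium than in pericytes (1.41 ± 0.14, adjusted p = 1.1e-07) and slightly lower in vessels than in glia (-0.22 ± 0.08, adjusted p = 0.021), a call that was lost without library 1, without library 2 and without scaling per cell. Klf12 passed in neither.

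Genes upstream of Klf2 and Klf4 did not move as a block. Between endothelium and pericytes, 3 of 11 tested were higher, 4 were lower, and the list median of -0.14 was close to the -0.13 of all genes. Piezo1, a channel opened by flow, was higher by 2.04 ± 0.12 (adjusted p = 1.3e-10) and Heg1, a receptor that anchors the cerebral cavernous malformation proteins, by 1.77 ± 0.23 (adjusted p = 5.1e-06). Mef2c, one of the MEF2 factors, was lower (log2 -1.54) and Mef2a higher (0.80). Against glia, 7 of the 11 were higher in vessels and 2 lower, with Heg1 at 2.35 ± 0.13 and Piezo1 at 0.89 ± 0.07.

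Known endothelial targets of Klf2 and Klf4 were higher in endothelium. Of 6 tested, 5 were higher than in pericytes and none lower, with a list median of 3.6, against -0.13 over all genes. Edn1 (endothelin) stood 5.42 ± 0.15 higher (adjusted p = 4.2e-15) and Nos3, the endothelial nitric oxide synthase, 3.96 ± 0.24 higher (adjusted p = 1.6e-10). Edn1 is known to be lowered, and Nos3 raised, by Klf2 in cultured endothelium. Between vessels and glia 4 were higher and 2 lower. The lower ones were Vcam1 (-1.66) and S1pr1 (-0.76), which were high in astrocytes at 653 and 337 CPM. Targets were listed as endothelial genes, so their height in endothelium is not independent of that class.

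Of 14 early response genes tested, 12 were higher in endothelium than in pericytes and 1 was lower, with a median of 1.98. Dusp1, a phosphatase of MAP kinases, was 4.14 ± 0.35 higher (adjusted p = 1.7e-08), and Cyr61, a secreted matrix protein, 3.97 ± 0.27 higher (adjusted p = 9.8e-10). Steroid and thyroid hormone response genes were split between vessels and glia, with 4 higher and 2 lower of 7. Tsc22d3, a glucocorticoid target, was higher in vessels (1.30 ± 0.27) and Dio2, which activates thyroid hormone, lower (-1.68 ± 0.14). Against pericytes, 5 of the 7 were higher in endothelium and 1 was lower, led by Cdkn1a (5.22 ± 0.30), a cell cycle inhibitor, and Sgk1 (3.64 ± 0.18), a kinase gene induced by glucocorticoids. Sp factors, the nearest relatives of the family, gave 2 higher and 1 lower of 6 in vessels against glia, with Sp1 at 0.73 ± 0.10, and 1 higher and 1 lower in endothelium against pericytes. Corepressors and coactivators gave 2 higher and 3 lower of 11 in vessels and 1 higher and 4 lower in endothelium, where Ctbp2, a corepressor bound by Klf3, was higher by 0.79 ± 0.10 and the deacetylase Hdac2 lower (-0.77 ± 0.10). Heat shock genes gave 1 higher and 3 lower of 5 in vessels, and 0 higher and 4 lower in endothelium.

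The next comparisons were made inside a class, on splits that the choice of genes had not used, and the 8 genes were tested there. All subgroups with at least 20 cells in each library entered 1 fit of 10059 genes, and all 8 genes passed the minimum mean of 10 CPM over its groups. Klf15 did so through astrocytes: it averaged 1.04 to 2.75 CPM in endothelium, pericytes, microglia and neuroblasts. Klf4 averaged 1.14 CPM in OPC, 1.35 CPM in neuroblasts and 6.22 CPM in pericytes, and Klf9 averaged 4.88 CPM in microglia. There the 10 CPM added before the log leave them little room to pass, so they weigh down any count of 8 set beside a background. Endothelial cells with at least 2 of the arterial genes Gkn3, Sema3g, Bmx and Efnb2 above 0 (26, 24 and 20 cells) were set against endothelial cells with all 4 at 0 (199, 207 and 125 cells). Of the 8 genes, 3 were higher in arterial-marker cells and none lower, where 27.0% of all genes passed, so the count is near that background. Klf4 measured 928, 881 and 1191 CPM in arterial-marker cells, against 422, 369 and 494 CPM in the others (log2 1.20 ± 0.22 SE, adjusted p = 1.3e-05). Klf10 measured 49.7, 109 and 81.0 CPM in arterial-marker cells, against 31.2, 26.3 and 41.9 CPM (1.02 ± 0.18, adjusted p = 1.0e-05). Klf9 measured 112, 109 and 139 CPM in arterial-marker cells, against 58.2, 62.2 and 70.0 CPM (0.82 ± 0.17, adjusted p = 1.3e-04). The groups did not overlap for these 3 genes, and each was higher in every library.

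Klf2 measured 4264, 5089 and 5084 CPM in arterial-marker cells, against 3025, 3079 and 3719 CPM in the other endothelial cells. All 3 arterial libraries lay above all others, yet the difference of 0.56 ± 0.25 had an adjusted p of 0.10. Klf6 stood at 0.27 ± 0.14 (adjusted p = 0.16), and Klf7 (0.10) and Klf13 (0.11) did not pass either, while Klf15 was too low there to be read. Klf4 lost its call with a pseudocount of 1 CPM (adjusted p = 0.088), while the calls of Klf9 and Klf10 held in all 13 alternatives. Known targets of Klf2 and Klf4 were higher for 4 of 6 and lower for none, with Vcam1, a leukocyte adhesion molecule, at 2.83 ± 0.28 and Tek, the angiopoietin receptor, at 1.29 ± 0.18. The list mixes genes known to be raised by Klf2, such as Nos3, and lowered by it, such as Edn1. The count therefore has no expected direction, and regulation by Klf2 or Klf4 was not tested. Among upstream genes Heg1 was higher (1.18 ± 0.18) and the kinase Map2k5 lower (-0.56 ± 0.19). Early response genes were higher for 6 and lower for 1 of 14, led by Nr4a1 (1.81 ± 0.23), a nuclear receptor, and the 15 genes without Fos summed to 7576 to 7906 CPM in arterial-marker libraries, against 5383 to 6220 CPM. Endothelial markers (5 of 5 in the table) summed to 6642 to 7194 CPM, against 3801 to 4422 CPM, and fibroblast markers to 0 to 336 CPM, against 1.58 to 14.6 CPM. Erythroid genes (3 of 3) summed to 4138 to 9684 CPM, against 13673 to 15132 CPM. Median detected genes were 2926 and 2815. The part of these in the differences was not tested, except that the 3 calls held without each library in turn and among the middle 50% of cells by detected genes.

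Differentiating oligodendrocytes, cells of no class with Bcas1 and Enpp6 above 0 and Pdgfra at 0 (111, 150 and 85 cells), were set against OPC. Klf9 and Klf13 were higher and Klf6 was lower, 3 of 8 genes where 39.7% of all genes passed. Klf9 measured 138, 151 and 184 CPM in differentiating cells, against 65.9, 59.7 and 64.1 CPM in OPC (1.19 ± 0.17, adjusted p = 3.4e-08). Klf13 measured 271, 236 and 217 CPM in differentiating cells, against 98.0, 107 and 103 CPM in OPC (1.15 ± 0.16, adjusted p = 2.1e-08). Klf6 measured 18.1, 23.4 and 12.1 CPM in differentiating cells, against 44.0, 46.5 and 44.6 CPM in OPC (-1.0 ± 0.14, adjusted p = 4.1e-08). The groups did not overlap for any of the 3, and all 3 calls held in all 13 alternatives. The promoters of Klf9 and Klf13 printed above each hold 1 CACCC and at least 2 CCAAT, and that of Klf6 holds 4 CCAAT and no CACCC. The CCAAT matches of Klf9 at -69 to -65 and -66 to -62 overlap. Klf2 and Klf7, which did not pass here, hold 1 and 3 CACCC, so the motif does not set the higher genes apart.

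Klf2 (-0.39 ± 0.25), Klf7 (-0.11 ± 0.15) and Klf10 (0.10 ± 0.18) did not pass, and Klf4 and Klf15 were too low in both groups to be read. Among other family genes Klf3 was lower (-2.01 ± 0.15, adjusted p = 2.0e-17) and Klf12 was also lower (-1.28 ± 0.21, adjusted p = 6.1e-07). Thra, a thyroid hormone receptor, was higher (1.53 ± 0.19, adjusted p = 1.4e-09), and Sgk1 was higher too (2.45 ± 0.19), 2 higher against 2 lower of 8 steroid and thyroid hormone response genes. Early response genes were lower for 10 of 14 and higher for none, led by Egr1 (-4.48 ± 0.30) and Cyr61 (-2.88 ± 0.20), and 15 of them summed to 182 to 205 CPM in differentiating cells, against 1002 to 1103 CPM in OPC. OPC markers (5 of 5) summed to 1878 to 2290 CPM, against 5378 to 5628 CPM in OPC, and astrocyte markers (5 of 5) to 163 to 267 CPM, against 928 to 993 CPM. Median detected genes were 3027.5 and 2652, and the part of these in the differences was not tested.

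**Figure D3:**
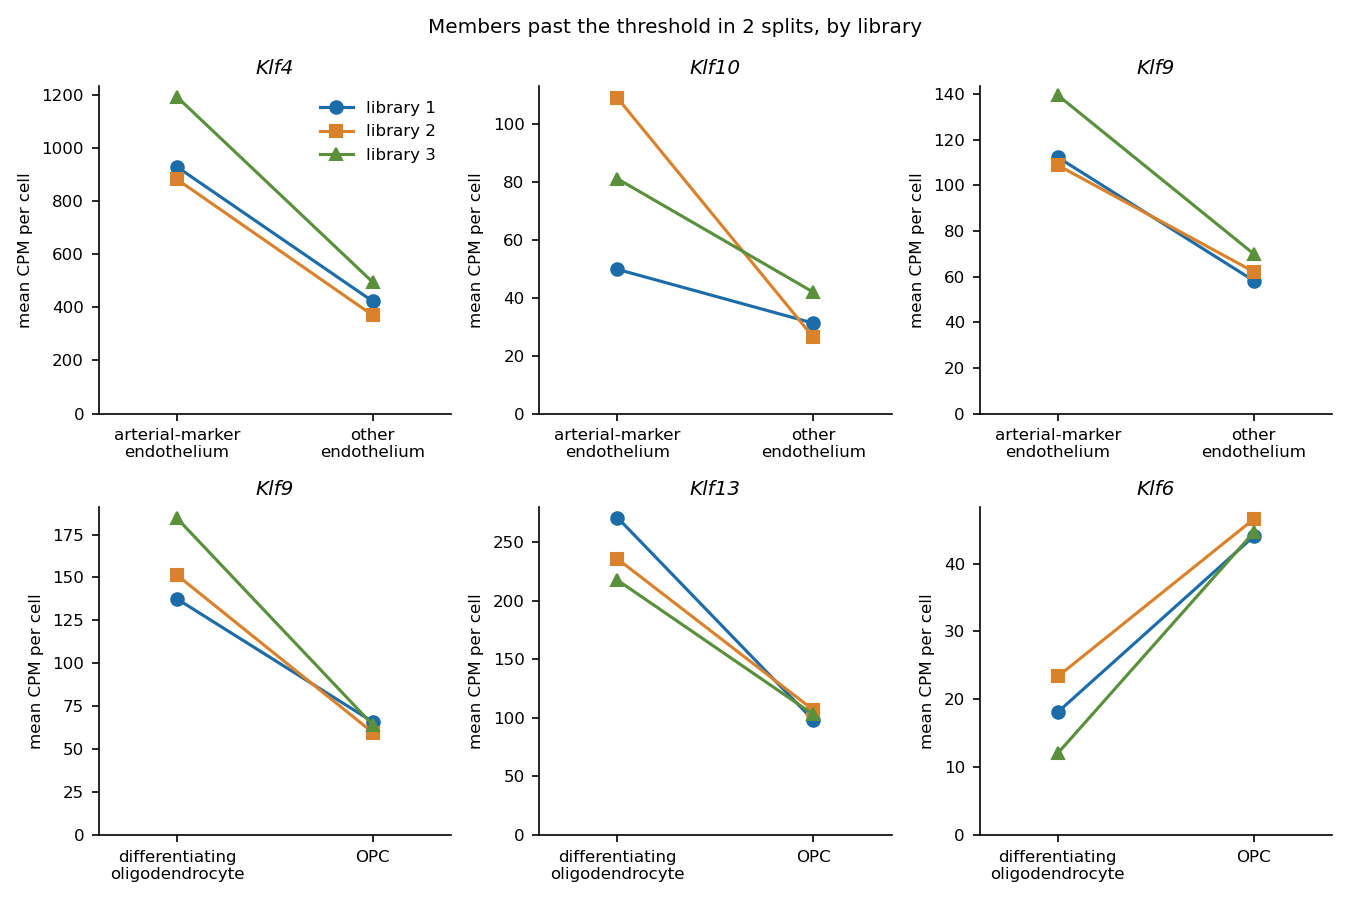
Mean CPM per cell (vertical axes, linear from 0) of the genes past the threshold, with a line for each library: arterial-marker cells and other endothelial cells above, differentiating oligodendrocytes and OPC below. Klf6 in differentiating oligodendrocytes is the only one of the 6 panels in which the left group is the lower.

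Dividing cells, with Mki67 and Top2a both above 0, were set against cells with both at 0 in the 5 classes with enough cells. Klf7 was lower in dividing cells of 3 classes. It measured 108, 115 and 59.9 CPM in dividing pericytes, against 166, 179 and 157 CPM in non-dividing ones (-0.81 ± 0.15, adjusted p = 1.1e-05). In neuroblasts it measured 159, 200 and 179 CPM in dividing cells, against 317, 312 and 274 CPM (-0.72 ± 0.15, adjusted p = 7.6e-05). Neither pair of groups overlapped. In astrocytes it measured 86.6, 126 and 199 CPM in dividing cells, against 194, 209 and 187 CPM (-0.56 ± 0.15, adjusted p = 0.0027), and there the groups overlapped, with library 3 going the other way and the call lost without library 1 (adjusted p = 0.29) and without library 2 (0.10). In OPC the difference of -0.39 ± 0.15 missed the threshold (adjusted p = 0.053), and in microglia it was 0.03 ± 0.15.

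Klf6 was higher in dividing cells of 2 classes. In microglia it measured 173, 152 and 204 CPM in dividing cells, against 119, 109 and 107 CPM (0.61 ± 0.14, adjusted p = 0.0014). In neuroblasts it measured 48.1, 62.8 and 79.8 CPM in dividing cells, against 31.2, 39.4 and 26.7 CPM (0.78 ± 0.14, adjusted p = 1.4e-05). The groups did not overlap in either class and both calls held in all 14 and 13 alternatives run. Astrocytes (0.37, adjusted p = 0.054) and OPC (0.35, adjusted p = 0.089) had differences that did not pass, and pericytes had -0.20 ± 0.14.

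In pericytes Klf13 and Klf9 were lower with Klf7. Klf13 measured 301, 338 and 350 CPM in dividing pericytes, against 573, 507 and 474 CPM (-0.63 ± 0.16, adjusted p = 0.0015), without overlap, and the call was lost without library 1 (adjusted p = 0.055). Klf9 measured 64.5, 109 and 48.7 CPM in dividing pericytes, against 120, 105 and 135 CPM (-0.69 ± 0.17, adjusted p = 0.0011). Library 2 did not share that direction, and the call was lost without library 3 (adjusted p = 0.14). In microglia Klf4 was lower, at 0, 4.72 and 11.9 CPM in dividing cells, against 14.5, 11.4 and 20.9 CPM (-0.78 ± 0.22, adjusted p = 0.0075), with overlap, a call lost without library 1 (adjusted p = 0.28) and in the middle 50% of cells by detected genes (0.053). In neuroblasts Klf10 was higher, at 16.6, 21.8 and 22.8 CPM in dividing cells, against 10.1, 13.4 and 10.4 CPM (0.51 ± 0.18, adjusted p = 0.025), a call lost in 6 of 13 alternatives, among them leaving out any 1 library.

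By class, 3 of 8 genes passed in pericytes, 2 in microglia, 1 in astrocytes, 0 in OPC and 3 in neuroblasts, where 33.4%, 14.4%, 25.4%, 18.9% and 32.5% of all genes passed. In OPC limma gave 3 of the 8 an unadjusted p under 0.05, and the alternatives gave 0 to 2 calls. These shares lie near the backgrounds, and the median of all genes in neuroblasts was itself 0.15. Klf3 was lower in dividing cells of pericytes (-0.83 ± 0.15), astrocytes (-0.49 ± 0.15), OPC (-0.45 ± 0.15) and neuroblasts (-0.39 ± 0.15), the last 2 lost without each library in turn and the astrocyte call without library 1 (adjusted p = 0.53). Sin3a, the corepressor recruited by Klf13, was higher in dividing cells of all 5 classes, by 0.81 to 1.69. Jund, which is on the early response list, was lower in all 5, by -0.39 to -0.93. Of the 14 genes tested from that list 3 were lower and 0 higher in pericytes, 4 lower and 1 higher in astrocytes, 2 lower and 0 higher in microglia, 1 each way in OPC and 2 each way in neuroblasts. Dividing cells had more detected genes, with medians of 3160 and 2376 in pericytes, 2374 and 1794 in microglia, 3345.5 and 2740 in astrocytes, 3490 and 2572 in OPC, and 2863.5 and 1702 in neuroblasts. A class's own 5 markers were lower in dividing cells of 4 classes: 13746 to 15934 CPM, against 20632 to 22457 CPM, in pericytes, and likewise without overlap in astrocytes, OPC and neuroblasts. In dividing pericytes other types' genes were lower too, without overlap: smooth muscle markers (5 of 5) at 1879 to 2722 CPM, against 3169 to 3333 CPM, fibroblast markers (5 of 5) at 356 to 554 CPM, against 669 to 755 CPM, and erythroid genes (3 of 3) at 298 to 650 CPM, against 2037 to 9757 CPM. Other classes showed this as well. Astrocyte markers (5 of 5) were lower at 111 to 154 CPM, against 262 to 312 CPM, in dividing microglia. They were 567 to 652 CPM, against 986 to 1070 CPM, in OPC and 308 to 413 CPM, against 557 to 591 CPM, in neuroblasts. Erythroid genes were lower in dividing neuroblasts, at 683 to 1861 CPM, against 3062 to 5287 CPM. Some lists went the other way, such as smooth muscle markers in neuroblasts, at 38.9 to 42.9 CPM, against 17.3 to 22.5 CPM. In microglia the class's own markers overlapped, at 16098 to 16917 CPM in dividing cells and 16189 to 17642 CPM in the rest. In pericytes, astrocytes and neuroblasts too few dividing cells remained among the middle 50% by detected genes, and the part of these values in the differences was not tested.

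**Figure D4:**
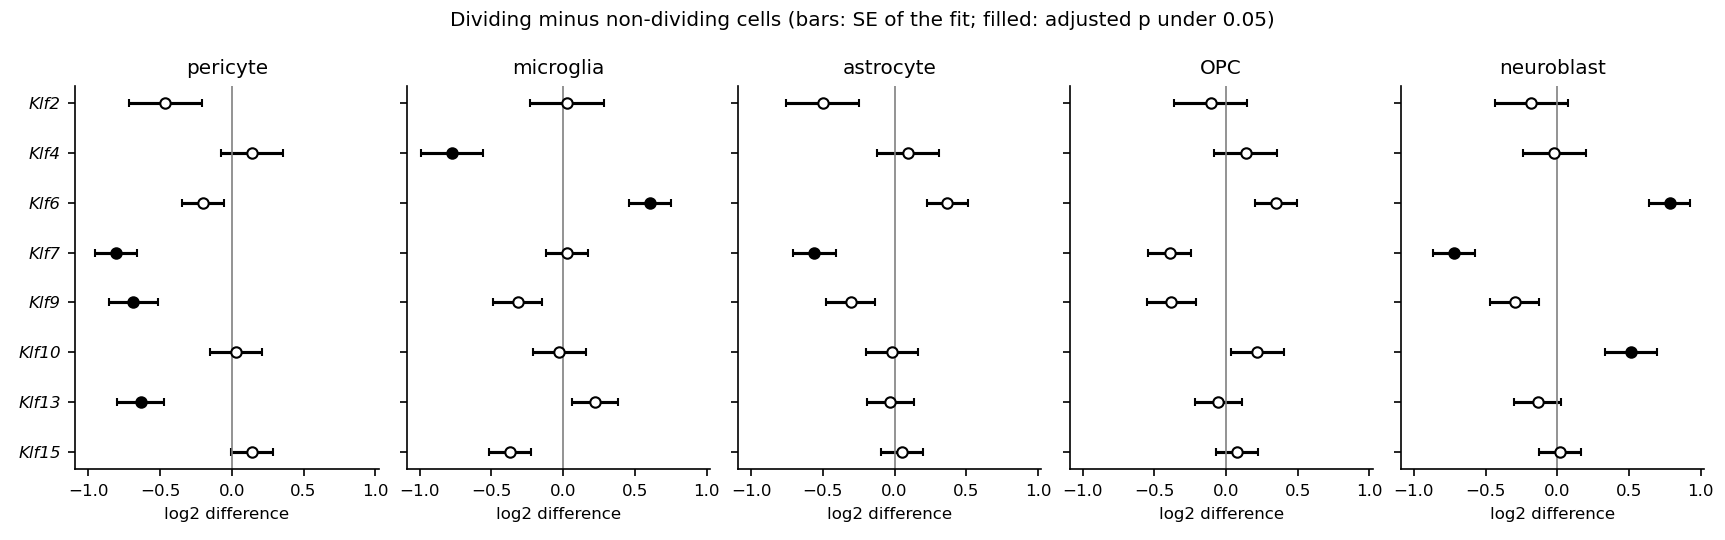
Log2 difference of dividing minus non-dividing cells (horizontal axes) for the 8 genes in 5 classes, with bars for the SE of the fit and filled points at an adjusted p under 0.05. Klf7 lies left of 0 in every class but microglia, and Klf6 right of 0 in every class but pericytes.

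Effects of division were compared between classes for each of the 8 genes over 10 pairs of classes. Of 80 such differences 5 passed, where 6.78% of differences over all genes passed, and 23 had an unadjusted p under 0.05. Klf6, Klf7 and Klf13 each differed between pericytes and microglia, by -0.81 ± 0.20, -0.84 ± 0.21 and -0.86 ± 0.23 (adjusted p = 0.0070, 0.0059 and 0.011). Klf6 also differed between pericytes and neuroblasts (-0.98 ± 0.20, adjusted p = 4.7e-04) and Klf7 between microglia and neuroblasts (0.75 ± 0.21, adjusted p = 0.015).

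Fos, an early response gene, was used to split each class into cells with a count and cells without. In astrocytes Klf4 measured 33.0, 28.4 and 19.5 CPM in Fos-detected cells, against 8.84, 6.63 and 7.51 CPM in Fos-undetected ones (1.05 ± 0.22, adjusted p = 0.0038). The groups did not overlap, and 12.4% of Fos-detected cells had Klf4 above 0, against 4.19% of the rest, with median detected genes of 2892.5 and 2723. Klf4 was the 1 of 8 genes that passed there, where 0.467% of all genes did. Its difference was 0.88 to 1.67 over the alternatives and in the same direction in all of them, but the call was lost without library 1 (adjusted p = 0.27), without library 2 (0.74), with a pseudocount of 1 CPM (0.60) and among the middle 50% of cells by detected genes (0.25). Of 13 early response genes other than Fos, 8 were higher, led by Junb (2.71 ± 0.23) and Cyr61 (2.41 ± 0.20). Summed endothelial markers (5 of 5) overlapped, at 12.8 to 20.6 CPM in Fos-detected astrocytes and 12.3 to 19.8 CPM in the rest. Smooth muscle markers (5 of 5) ran from 70.1 to 109 CPM, against 43.8 to 58.0 CPM, and ependymal markers (2 of 2) from 23.4 to 305 CPM, against 3.35 to 60.6 CPM. Erythroid genes (3 of 3) ran from 1536 to 3091 CPM, against 3723 to 7519 CPM, and their part was not tested.

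In the other 4 classes 0 of 8 genes passed limma's adjusted threshold, against 0.497% of all genes in endothelium, 2.7% in pericytes, 0.0994% in microglia and 0.00994% in OPC. An unadjusted p under 0.05 was reached by 3, 1, 3 and 0 of them. In endothelium Klf2 measured 3534, 3858 and 4545 CPM in Fos-detected cells, against 2536, 2629 and 3261 CPM. Klf6 measured 995, 991 and 1085 CPM in Fos-detected cells, against 714, 790 and 819 CPM. For both genes the groups did not overlap, and so it was for Klf4, Klf7, Klf10 and Klf13, with differences of 0.16 to 0.54 and adjusted p of 0.26 to 0.97. How many of all genes had groups without overlap was not counted, so this is not a result about the 8 genes. In astrocytes the groups did not overlap for Klf2, Klf4, Klf7, Klf9, Klf10 and Klf15 either, and Klf7 and Klf9 were lower in Fos-detected cells there. Egr1 (1.26 ± 0.30) and Nr4a1 (1.18 ± 0.23) did pass in endothelium, among 5 of 13 early response genes. Endothelial markers (5 of 5) summed to 4586 to 5692 CPM in Fos-detected cells, against 3878 to 4346 CPM, and their part was not tested.

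**Figure D5:**
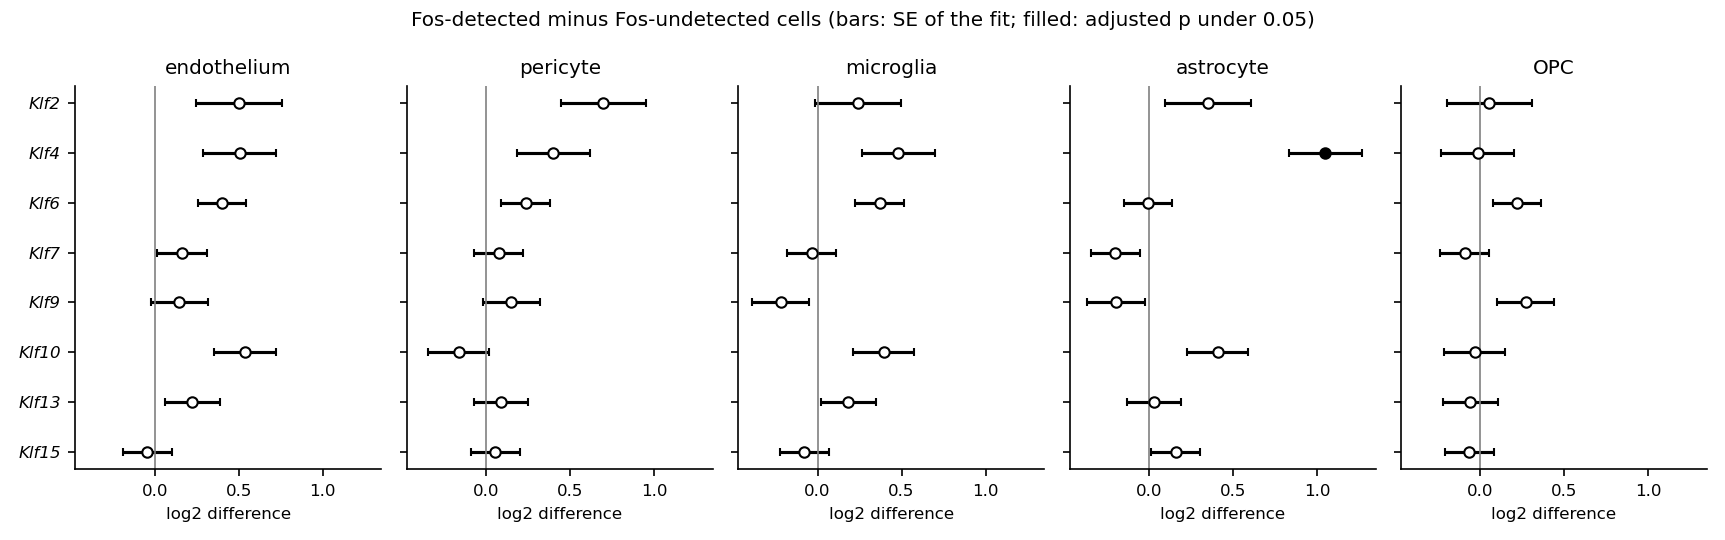
Log2 difference of Fos-detected minus Fos-undetected cells (horizontal axes) for the 8 genes in 5 classes, with bars for the SE of the fit and filled points at an adjusted p under 0.05. Only Klf4 in astrocytes is filled.

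With Junb in place of Fos the endothelial result differed, and 6 of 8 genes were higher in Junb-detected cells, where 18.0% of all genes passed. The Junb-undetected cells were few, 37, 20 and 10, against 251, 277 and 178. Klf4 measured 501, 464 and 638 CPM in Junb-detected cells, against 336, 213 and 75.3 CPM in the undetected (1.53 ± 0.26, adjusted p = 2.9e-05). Klf2 measured 3303, 3541 and 4107 CPM in Junb-detected cells, against 2052, 1493 and 1176 CPM (1.24 ± 0.26, adjusted p = 0.00039). The groups did not overlap for either gene. Klf9, Klf10, Klf6 and Klf7 also passed, by 0.54 to 0.78. For Klf9 and Klf10 library 1, with most of the undetected cells, went the other way, at 67.0 CPM in Junb-detected cells against 78.9 CPM for Klf9 and 35.6 against 44.6 CPM for Klf10, so these 2 calls rest on 20 and 10 undetected cells in libraries 2 and 3. Klf13 (0.35, adjusted p = 0.13) did not pass. Junb-undetected cells also had lower endothelial markers (5 of 5), 2492 to 3737 CPM against 4404 to 5214 CPM in Junb-detected cells, and more microglial ones (5 of 5), 145 to 436 CPM against 64.0 to 133 CPM, with median detected genes of 2782 and 2848. The part of these in the difference was not tested. Between classes, 0 of 80 differences of the Fos effect passed, where 0.122% passed over all genes and 7 of the 80 had an unadjusted p under 0.05.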

How the data were processed

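Single-cell libraries of 3 prefrontal cortex samples were analysed. Build mm10 and the tools CASAVA 1.8, Cell Ranger and Seurat are named in the labels, per the submitters' processing notes. As deposited by the authors, the values are the natural log of 1 plus a whole number: all 34958786 values above 0 gave a whole number within 1e-06. These corrected counts total 4422 to 8135 per cell, so they had been depth-corrected. How is not given in the sources used here, and the raw depth is unknown. Each cell was scaled to CPM and averaged by class and library, and the log2 of that average plus 10 CPM entered limma 3.58.1 (R 4.3.3; trend, library as a block) for genes averaging 10 CPM or more, for groups of at least 20 cells in each library (at least 10 in alternatives, the Junb split among them). Adjusted p-values are Benjamini-Hochberg over all genes tested. A cell can enter several splits of the 1 fit, so the groups in it are not independent and its p-values may be too small. Fits of 1 split each are among the alternatives.

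The libraries are blocked as each gives both sides of every contrast. Named genes were all 8 factors, the 2 listed genes with the largest log2 difference past the threshold in each list, the 3 most alike genes (1 of Klf13's is not reported here), and others named to complete a count, chosen after their values were seen. Members and lists were chosen with earlier results of these data known. Scrublet (scanpy 1.11.5) was used only as an alternative and marked 120, 78 and 89 cells. The fit was tested on simulated data. The endothelial dividing split and the neuroblast Fos split were not fitted, having under 20 cells in 1 library.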

Additional observations from a re-analysis of the deposited data

Results flagged for a closer look

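For 5 differences in the effect of division between classes, the test of the difference itself passed (limma, adjusted over all genes tested). They are 5 of 80, where 6.78% of such differences passed over all genes, so the count is at the background. The effect on Klf6 was 0.81 lower in pericytes than in microglia (-0.81 ± 0.20 SE, adjusted p = 0.0070), a call lost without library 2 (adjusted p = 0.12). For Klf7 in the same classes it was -0.84 ± 0.21 (adjusted p = 0.0059), lost without library 2 and with Cenpf and Birc5 as the division markers (up to 0.084). For Klf13 it was -0.86 ± 0.23 (adjusted p = 0.011), lost in 4 of 13 alternatives (up to 0.26). Klf6 in pericytes against neuroblasts stood at -0.98 ± 0.20 (adjusted p = 4.7e-04) and passed in all 13 alternatives. Klf7 in microglia against neuroblasts stood at 0.75 ± 0.21 (adjusted p = 0.015), lost in 5 of 13 alternatives (up to 0.21).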

How the results depend on the processing

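Of 216 counts of calls under the alternatives, 180 stayed within 1.5 times the reported count and 36 moved. Of 1887 values of single tested genes, 1625 kept their direction and call, 258 lost the call and 4 reversed. Of 512 levels and class differences with no test, 469 moved by less than the spread between libraries, 40 moved by more and 3 reversed. The fit with no replicate block changed none of 16 counts and cost 6 single genes their call. Calls in the Fos split were 6 in endothelium with Junb in its place, 1 in pericytes with 1 fit per split and also 1 with class and library as a joint block there, and 0 in astrocytes with a pseudocount of 1 CPM and among the middle 50% of cells by detected genes (0 to 1 without each library in turn). The share of all genes that passed is not given for the counts in this paragraph, except for Junb in endothelium above. These counts are therefore not results about the 8 genes. In the dividing split, pericytes had 5 calls after centring on the median gene. Microglia had 4 with a pseudocount of 1 CPM, 4 after centring and 1 in both fits per split (1 to 2 without each library). Astrocytes had 2 with a pseudocount of 1 CPM, without scaling per cell, with class genes at 2 or more and without Scrublet doublets, and 3 after centring or with Cenpf and Birc5 (0 to 3 without each library). OPC had 1 without scaling, with class genes at 2 or more, without doublets and in the middle 50%, and 2 after centring or with Cenpf and Birc5 (0 to 1 without each library). Differences between classes numbered 8 for Junb, with no share over all genes computed, so that count is not a result about the 8 genes. For division they numbered 9 with Cenpf and Birc5 and 3 with 1 fit per split (2 to 9 without each library). In the middle 50% they numbered 0, but only microglia and OPC kept enough dividing cells there. None of the 5 called differences could be tested in that setting. Without scaling, endothelium minus pericytes reversed to 0.063 for Klf7 and 0.13 for Klf13, and with class genes at 2 or more to -0.068 for Klf15. With Junb for Fos in pericytes Piezo1 reversed to 0.53 and Cyr61 to -0.052, and among the middle 50% of OPC the division effect reversed to -0.29 for Sp1 and -0.44 for Fkbp5. The cause was not tested. The middle 50% left 16 of 24 subgroups with enough cells. The fits per split were chosen after seeing the data. Raw depth is unknown, and genes near the detection limit, such as Klf15 outside astrocytes, are limited by it.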

Other observations

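Cells outside the 8 classes, which enter no comparison above except as differentiating oligodendrocytes, also carried Klf2. In 133 cells with the genes of endothelium and pericytes and no other class it measured 1629, 1737 and 729 CPM in libraries 1, 2 and 3. In 60 cells with smooth muscle and pericyte genes it measured 156, 72.5 and 53.8 CPM. In 27 cells of no class with the macrophage genes Mrc1 and Pf4 it measured 206, 0 and 232 CPM. Klf10 in those 27 cells measured 21.6, 38.3 and 33.7 CPM, and library 2 held 4 of them.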
